A study of Homo sapiens with 6 samples.

Results

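Condensins are the protein complexes that compact chromosomes for cell division, and the transcripts of their 8 subunit genes were compared between HCT116 cells labelled siMTA1 and control cells of the same line. The 8 genes were taken from the deposited table by symbol, and all 8 were present, out of 36651 genes. HCT116 is an established human colorectal carcinoma line of epithelial morphology. Polyadenylated RNA was sequenced from 3 control libraries, whose titles read WT, and from 3 libraries whose descriptions read siMTA and whose titles read CrMTA1. The labels do not say how MTA1 was lowered, whether the siMTA1 cells were 1 clone, what the control cells received, at what time RNA was taken or whether replicates were separate cultures, so a p-value here reflects only how these 6 libraries vary, which may be technical.

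A condensin is a ring built on a pair of ATPases, SMC2 and SMC4, which are joined by a kleisin subunit and carry a pair of HEAT-repeat subunits. Vertebrate cells have a pair of such complexes with the same SMC ATPases and different other subunits. Condensin I holds the kleisin NCAPH with NCAPD2 and NCAPG, stays outside the nucleus in interphase and binds chromosomes after the nuclear envelope breaks down. Condensin II holds NCAPH2 with NCAPD3 and NCAPG2, is nuclear through the cell cycle and begins compaction in prophase. MTA1, the gene named in the group label, codes for a protein of the NuRD chromatin complex, which couples histone deacetylase and nucleosome remodelling activities.

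Many genes that are switched on toward mitosis carry a short promoter element called the CHR, with the letters TTTGAA, which is bound by the LIN54 subunit of the DREAM and MYBL2-containing complexes. Promoter windows from RefSeq (GRCh38.p14), 250 bases before to 50 bases after an annotated start, were found for 7 of the 8 genes, in 10 windows, and not for NCAPH2. TTTGAA on either strand stood in a window of 6 of these 7 genes, in 6 of the 10 windows, against 15.2% of all 35116 windows. The 6 matches are shown because they are the letters these genes share, each on the strand of its gene, with the match in capitals (TTCAAA is the same element read on the other strand).
SMC4: gccgcactttttTTCAAAttagtggatccc
SMC2: ctcgcgccgaaaTTCAAAggaataaatagt
NCAPD2: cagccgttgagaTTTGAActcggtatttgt
NCAPG: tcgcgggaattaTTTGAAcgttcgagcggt
NCAPD3: gcgggagcgagcTTTGAAagttgagcacgg
NCAPG2: ccggcgggtgcgTTTGAAtctggtccg
These stretches lie at chr3:160399563-160399592 (plus strand), chr9:104094294-104094323 (plus), chr12:6493945-6493974 (plus), chr4:17810932-17810961 (plus), chr11:134223953-134223982 (minus) and chr7:158704755-158704781 (minus), in the order shown. Counted from the annotated RefSeq start, the match began at position −75 in SMC4, −3 in SMC2, −145 in NCAPD2, −35 in NCAPG, −3 in NCAPD3 and 36 in NCAPG2. The match of NCAPG2 thus lies after that start, and those of SMC2 and NCAPD3, from −3 to 3, span it. Of the 7 genes 3 had 2 windows, and the positions count from the RefSeq start of the window that held the match. In GENCODE 29, whose gene spans are given below, these 6 genes start earlier than that RefSeq start. All 6 stretches lie within those spans.

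The window of NCAPH held no TTTGAA but a CCAAT box, the site of the trimeric factor NF-Y, at position −112. Its 200 bases before the start (chr2:96335566-96335765, plus strand) are shown because the transcript of this kleisin is among those that differed between the groups, with the CCAAT in capitals.
NCAPH: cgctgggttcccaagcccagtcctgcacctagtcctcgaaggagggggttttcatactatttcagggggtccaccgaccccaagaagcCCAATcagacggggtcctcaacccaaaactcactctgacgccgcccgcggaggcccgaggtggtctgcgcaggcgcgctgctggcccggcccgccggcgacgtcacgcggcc
CCAAT on either strand was found in a window of 3 of the 7 genes (NCAPH, NCAPD3 and NCAPD2, the last with 4 matches), and in 3 of the 10 windows, against 34.6% of all windows. The variant TTCGAA was found in 0 of the 7 genes and in 1.45% of all windows. A site of the E2F kind (TTTCCCGC, TTTCGCGC, TTTGCCGC or TTTGGCGC) was found in 1 of the 7 genes, NCAPD3, at position −249. Such a site stood in 3.31% of all windows. A match describes letters only, and binding was not measured here.

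The libraries held an implied 42900000 to 65400000 fragments in the control group and 57200000 to 66700000 fragments in the siMTA1 group, read from the steps of low values. MTA1 had 65.90, 67.61 and 66.74 FPKM (fragments per kilobase of gene and per unit of mapped fragments) in control libraries 1, 2 and 3 and 44.55, 43.98 and 47.97 FPKM in siMTA1 libraries 1, 2 and 3. On the scale of log2(FPKM + 1), on which the log2 fold changes of genes are given here, MTA1 fell by 0.54 (SE 0.06, limma adjusted p = 0.000376). Of 9 epithelial markers, EPCAM, CDH1 and the keratins KRT8, KRT18 and KRT19 were high, at mean levels between 28.6 FPKM for CDH1 and 3538 FPKM for KRT19 in control, while the intestinal genes CDX1, VIL1 and LGALS4 were near 0, with no library above 0.05 FPKM. CDX2, an intestinal transcription factor, had mean levels of 4.76 FPKM and 4.14 FPKM in control and siMTA1 libraries. The summed level of the 9 markers ranged from 6555 to 6869 FPKM in control libraries and from 5656 to 6301 FPKM in siMTA1 libraries, and 1 of the 6 tested markers rose and 2 fell. Markers of other cell types were near 0. The 4 leukocyte markers found, of 5, summed to 0.09 to 0.19 FPKM over all libraries, the 3 endothelial markers to 0.09 to 0.18 FPKM, and the 4 fibroblast markers to 1.93 to 2.01 FPKM in control and 2.17 to 2.76 FPKM with siMTA1, nearly all of it COL1A1, with DCN listed at 0 in every library. The part of these markers in the results below was not tested.

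Of the 8 condensin genes, 4 rose in the siMTA1 libraries and 0 fell. NCAPG2 and NCAPH, 1 gene of each complex, showed the smallest adjusted p-values, followed by NCAPD2 and SMC4. Mean FPKM of these 4 genes with siMTA1 was 1.52-fold, 1.35-fold, 1.18-fold and 1.32-fold of control, in that order. All 8 genes reached the mean of 1 FPKM required for testing. Among all 12141 tested genes, 18.2% were called changed (limma, adjusted p under 0.05), 6.13% higher and 12.1% lower. The median log2 fold change of the 8 genes was 0.21, and that of all tested genes was −0.05. Scaling shifts the balance of the whole table: 33.7% of called genes were higher in the values as deposited, against 51.6% under upper-quartile scaling, 53.0% under quantile normalization and 58.4% with median centring, and under each of those 3 scalings 5 condensin genes were called higher and 0 lower. Those 3 scalings called 16.0%, 15.7% and 15.9% of all tested genes, in that order. In RNA from whole cultures, a larger share of cells near mitosis and more RNA per cell cannot be told apart.

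**Figure D1:**
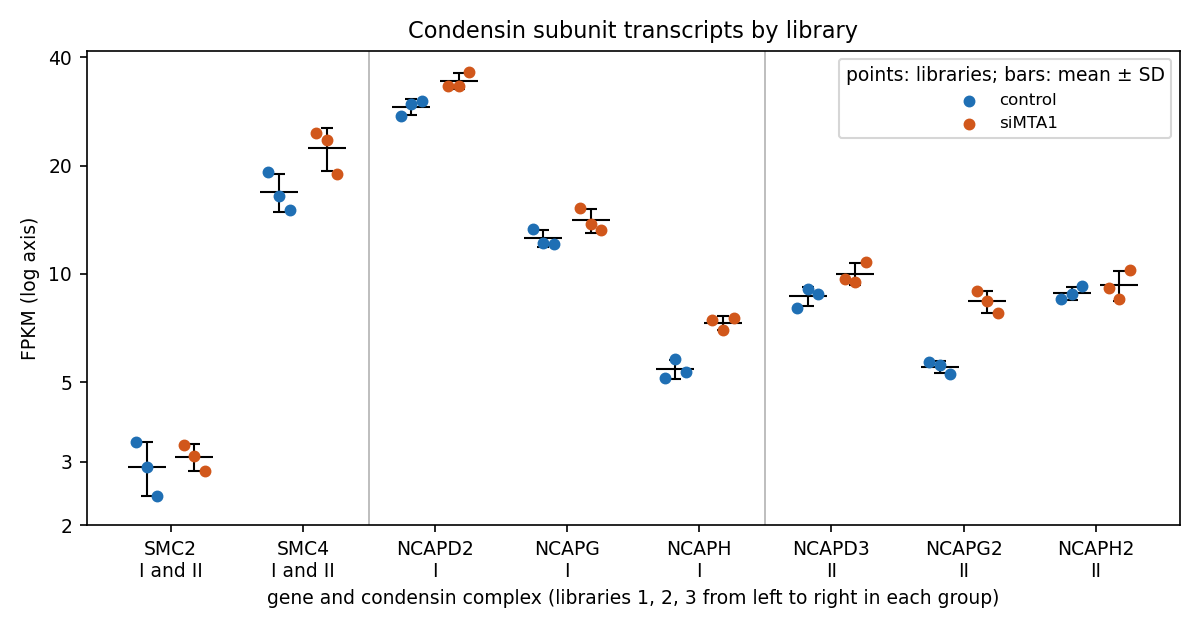
FPKM of the 8 condensin genes in each library on a log axis, with the mean and SD of each group (n = 3) and libraries 1, 2 and 3 from left to right. The groups are apart in NCAPD2, NCAPH, NCAPD3 and NCAPG2 and overlap in SMC2, SMC4, NCAPG and NCAPH2.

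Gene positions below are those of GENCODE 29 on GRCh38. The ATPases shared by both complexes stood far apart in level. SMC4 (ENSG00000113810.15) lies at chr3:160399274-160434962 on the plus strand. SMC4 had 19.20, 16.43 and 15.09 FPKM in control libraries 1, 2 and 3 and 24.66, 23.48 and 18.91 FPKM in siMTA1 libraries 1, 2 and 3. Of the siMTA1 libraries, 2 of 3 thus lay above every control library and siMTA1 library 3 lay just under control library 1, so the groups overlapped. Means were 16.9 ± 2.10 and 22.4 ± 3.04 FPKM (SD, n = 3 each), a log2 fold change of 0.38 (SE 0.11, limma adjusted p = 0.0368). That call ended without control library 2 (adjusted p = 0.104) or 3 (0.0964), without siMTA1 library 1 (0.107) or 2 (0.121), with no filter on low values (0.192) and with the filter lowered to a mean of 0.1 FPKM (0.0700).

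SMC2, the partner of SMC4 in both rings, was the lowest of the 8 genes. SMC2 (ENSG00000136824.18) lies at chr9:104094260-104141417 on the plus strand. SMC2 had 3.42, 2.90 and 2.42 FPKM in control libraries 1, 2 and 3 and 3.35, 3.11 and 2.83 FPKM in siMTA1 libraries 1, 2 and 3. Every siMTA1 value lay within the span of the control values, at means of 2.91 ± 0.50 and 3.10 ± 0.26 FPKM (SD, n = 3 each). The log2 fold change was 0.07, with a 95% interval from −0.14 to 0.29 (limma adjusted p = 0.624), and it was −0.02 without control library 3. The ratio of SMC4 to SMC2 in FPKM was 5.61, 5.67 and 6.24 in control libraries 1, 2 and 3 and 7.36, 7.55 and 6.68 in siMTA1 libraries 1, 2 and 3, a description given without a test in which the groups did not overlap.

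Among the subunits of condensin I, NCAPD2, a HEAT-repeat subunit, had the highest level of all 8 genes. NCAPD2 (ENSG00000010292.12) lies at chr12:6493356-6531955 on the plus strand. NCAPD2 had 27.45, 29.70 and 30.15 FPKM in control libraries 1, 2 and 3 and 33.31, 33.33 and 36.41 FPKM in siMTA1 libraries 1, 2 and 3. All siMTA1 libraries were above all control libraries, at means of 29.1 ± 1.45 and 34.4 ± 1.78 FPKM (SD, n = 3 each). NCAPD2 had a log2 fold change of 0.23 (SE 0.06, limma adjusted p = 0.0304). The call of NCAPD2 ended without control library 1 (adjusted p = 0.0700) or 2 (0.0802), without siMTA1 library 1 (0.0543), 2 (0.0650) or 3 (0.0870), and with no filter on low values (0.0989).

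NCAPH (ENSG00000121152.9, chr2:96335787-96373845, plus strand), the kleisin that closes the condensin I ring, had 5.14, 5.81 and 5.34 FPKM in control libraries 1, 2 and 3 and 7.42, 6.96 and 7.54 FPKM in siMTA1 libraries 1, 2 and 3. The groups did not overlap, and the lowest siMTA1 value exceeded the highest control value by more than the SD of either group. Means were 5.43 ± 0.34 and 7.31 ± 0.31 FPKM (SD, n = 3 each), with a log2 fold change of 0.37 (SE 0.06, limma adjusted p = 0.00568). The call held in all 20 alternatives tried, with adjusted p from 0.00239 to 0.0369.

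NCAPG (ENSG00000109805.9, chr4:17810902-17844862, plus strand), the other HEAT-repeat subunit of condensin I, had 13.36, 12.18 and 12.13 FPKM in control libraries 1, 2 and 3 and 15.28, 13.77 and 13.21 FPKM in siMTA1 libraries 1, 2 and 3. siMTA1 library 3 lay below control library 1 and the other siMTA1 libraries above every control value. Means of 12.6 ± 0.70 and 14.1 ± 1.07 FPKM (SD, n = 3 each) gave a log2 fold change of 0.15 (95% interval −0.00080 to 0.31, limma adjusted p = 0.145), which did not pass. The threshold was passed under array weights (adjusted p = 0.0191) and when the trend on gene length and GC content was removed, an alternative chosen after the data were seen (adjusted p = 0.0221).

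In condensin II the clearest difference was in NCAPG2, its G-type HEAT-repeat subunit. NCAPG2 (ENSG00000146918.19) lies at chr7:158631311-158704829 on the minus strand. NCAPG2 had 5.68, 5.58 and 5.28 FPKM in control libraries 1, 2 and 3 and 8.95, 8.40 and 7.79 FPKM in siMTA1 libraries 1, 2 and 3. The groups lay far apart, with each siMTA1 value above every control value. Means of 5.51 ± 0.21 and 8.38 ± 0.58 FPKM (SD, n = 3 each) gave a log2 fold change of 0.52 (SE 0.06, limma adjusted p = 0.00117), which held in all 20 alternatives, with adjusted p from 0.000107 to 0.0184.

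NCAPD3 (ENSG00000151503.12, chr11:134150119-134225454, minus strand), the D-type HEAT-repeat subunit of condensin II, had 8.06, 9.10 and 8.80 FPKM in control libraries 1, 2 and 3 and 9.70, 9.52 and 10.82 FPKM in siMTA1 libraries 1, 2 and 3. Its groups did not overlap either, although the gap between them was small. Means of 8.65 ± 0.54 and 10.01 ± 0.70 FPKM (SD, n = 3 each) gave a log2 fold change of 0.19 (95% interval 0.04 to 0.34, limma adjusted p = 0.0822), which did not pass. It passed under upper-quartile scaling (adjusted p = 0.0492), quantile normalization (0.0366) and median centring (0.0396).

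NCAPH2 (ENSG00000025770.18, chr22:50508216-50523472, plus strand), the kleisin of condensin II, had 8.51, 8.77 and 9.23 FPKM in control libraries 1, 2 and 3 and 9.11, 8.53 and 10.23 FPKM in siMTA1 libraries 1, 2 and 3. The groups overlapped, with 1 siMTA1 library above the control values. At means of 8.84 ± 0.36 and 9.29 ± 0.86 FPKM (SD, n = 3 each) the log2 fold change was 0.06, with a 95% interval from −0.10 to 0.22 (limma adjusted p = 0.566), and it was −0.0024 without siMTA1 library 3. For the 4 genes that did not pass, a missed threshold does not show equal levels.

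**Figure D2:**
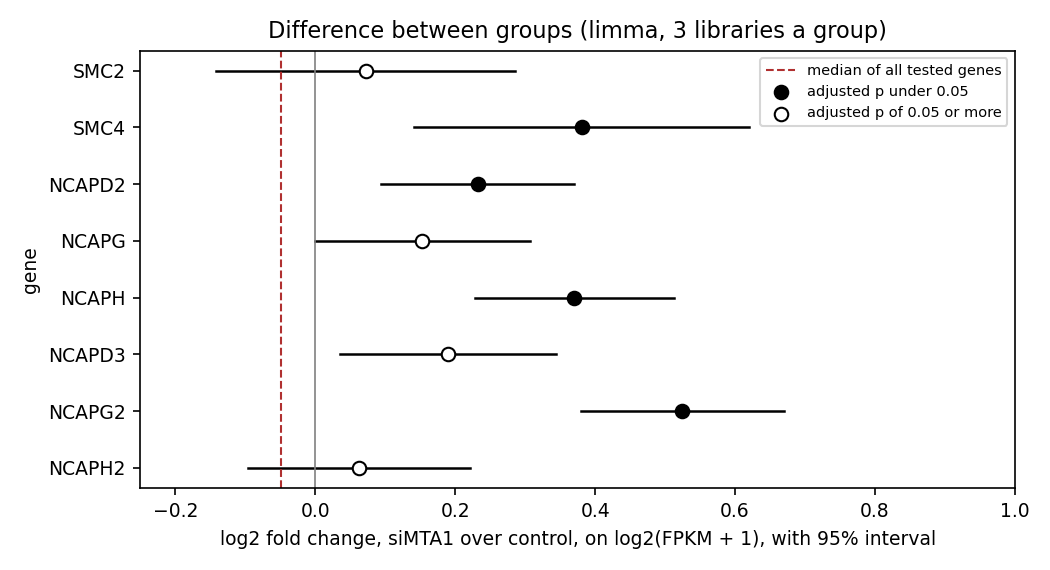
Log2 fold change of each condensin gene, siMTA1 over control, with its 95% interval from limma. NCAPG2 is highest at 0.52, SMC4, NCAPH and NCAPD2 are also filled as called, and the dashed line marks the median of all tested genes at −0.05.

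The values of the 2 groups did not overlap in 4 of the 8 genes, NCAPD2, NCAPH, NCAPD3 and NCAPG2, all higher with siMTA1. Over all tested genes, 39.1% did not overlap and 13.2% did so with siMTA1 higher. The count of called condensin genes was 2 (NCAPH and NCAPG2) without control library 2, siMTA1 library 1 or siMTA1 library 2. It was 3 without any other library, against 4 with all libraries. Calls over all tested genes fell too, from 18.2% to 8.62%, 12.4% and 8.79% without the libraries just named, in that order. Without any other library they were 12.8% to 14.6%.

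Levels per length could be ranked within each group. In control the order of mean FPKM was NCAPD2, SMC4, NCAPG, NCAPH2, NCAPD3, NCAPG2, NCAPH and SMC2, and the libraries of neighbours overlapped for NCAPH2 with NCAPD3 and for NCAPG2 with NCAPH. With siMTA1 the order was NCAPD2, SMC4, NCAPG, NCAPD3, NCAPH2, NCAPG2, NCAPH and SMC2, and NCAPD3 overlapped NCAPH2, which overlapped NCAPG2. NCAPG2 had thus left the range of NCAPH and entered that of NCAPH2. The sum over the 8 genes was 89.9 ± 1.29 and 108.9 ± 2.54 FPKM in control and siMTA1 libraries (SD, n = 3 each).

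Summed over their own subunits, condensin I and condensin II were higher by a like factor. The 3 genes of condensin I summed to 45.95, 47.69 and 47.62 FPKM in control libraries 1, 2 and 3 and to 56.01, 54.06 and 57.16 FPKM in siMTA1 libraries 1, 2 and 3. The 3 genes of condensin II summed to 22.25, 23.45 and 23.31 FPKM and to 27.76, 26.45 and 28.84 FPKM in the same order. The ratio of these sums, condensin I over II, was 2.05 ± 0.02 in control and 2.01 ± 0.03 with siMTA1 (SD, n = 3 each), and the libraries of the groups overlapped. The difference of the mean log2(FPKM + 1) of the 2 sets was 0.69 ± 0.01 in control and 0.69 ± 0.03 with siMTA1, a difference of −0.0072, given without a test, that became 0.012 with a pseudocount of 5 FPKM. Of the 3 genes in each set, 2 were called in condensin I and 1 in condensin II, with median log2 fold changes of 0.23 and 0.19. Among all tested genes 6.13% were called higher and 12.1% lower. The call of NCAPD2 in condensin I held in 14 of 20 alternatives.

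Behind these sums, the subunit pairs had different ratios. The ratio of NCAPG to NCAPG2 in FPKM was 2.35, 2.18 and 2.30 in control libraries 1, 2 and 3 and 1.71, 1.64 and 1.70 in siMTA1 libraries 1, 2 and 3, so that every siMTA1 library was below every control library. The ratio of NCAPH to NCAPH2 went the other way, from 0.604, 0.662 and 0.579 in control to 0.814, 0.816 and 0.737 with siMTA1, also without overlap. The ratio of NCAPD2 to NCAPD3 was 3.41, 3.26 and 3.43 in control and 3.43, 3.50 and 3.37 with siMTA1, with overlap. On the log2 scale of these FPKM ratios, with nothing added to the FPKM, the changes were −0.44 for the G pair, 0.36 for the kleisin pair and 0.03 for the D pair. Exact two-sided permutation tests over the 6 libraries gave p = 0.1, 0.1 and 0.4, or 0.15, 0.15 and 0.4 adjusted over the 3 pairs, and 0.1 is the smallest p that 3 against 3 libraries allow, so no pair could pass.

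**Figure D3:**
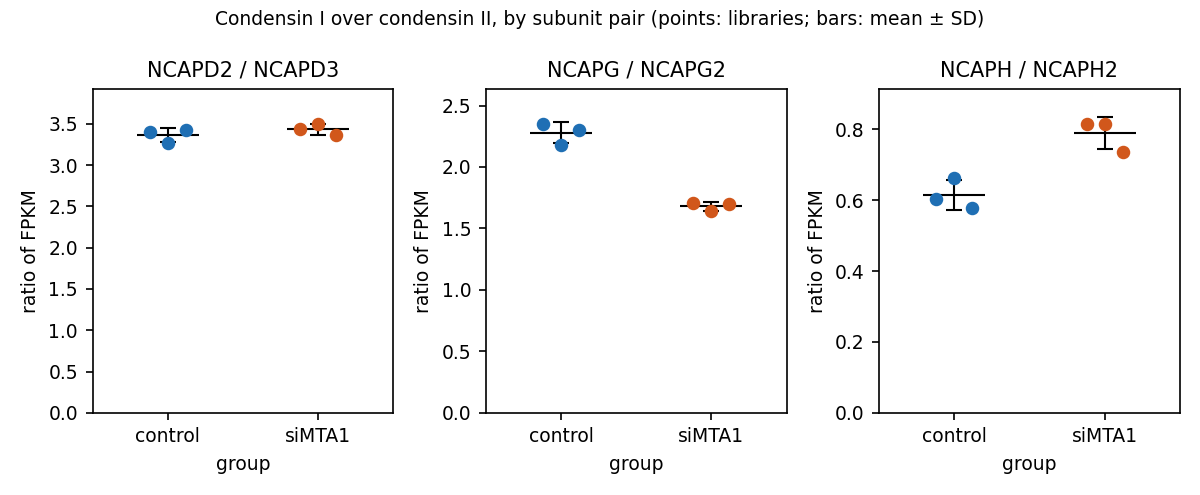
Ratio of FPKM of each condensin I subunit to its condensin II counterpart in every library, with the mean and SD of each group (n = 3). The NCAPG to NCAPG2 ratio falls from a mean of 2.28 to 1.68, the NCAPH to NCAPH2 ratio rises from 0.615 to 0.789, and the NCAPD2 to NCAPD3 ratios overlap.

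The spread within groups also had a pattern across the 8 genes. Their longest transcripts differ in GC content, at 37.3% for SMC4, 37.6% for SMC2, 39.0% for NCAPG and 41.4% for NCAPG2, and at 47.6% for NCAPH, 48.6% for NCAPD3, 52.5% for NCAPD2 and 62.2% for NCAPH2 (median of tested genes 48.8%). The 4 genes under 42% were highest in library 1 and lowest in library 3 of both groups. Among the 4 others, control library 1 was the lowest control library and siMTA1 library 3 the highest siMTA1 library in every gene. SMC4, for example, deviated from its group mean on the log2 scale by 0.18 in control library 1 and by −0.22 in siMTA1 library 3, whereas NCAPH2 deviated by −0.05 and 0.13. With the trend on GC content and gene length removed per library, SMC4 had a log2 fold change of 0.40 (limma adjusted p = 0.0105), NCAPG2 of 0.53 (0.000405), NCAPH of 0.38 (0.00239) and NCAPD2 of 0.20 (0.0139), and 5 of the 8 genes were called, NCAPG being the fifth.

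**Figure D4:**
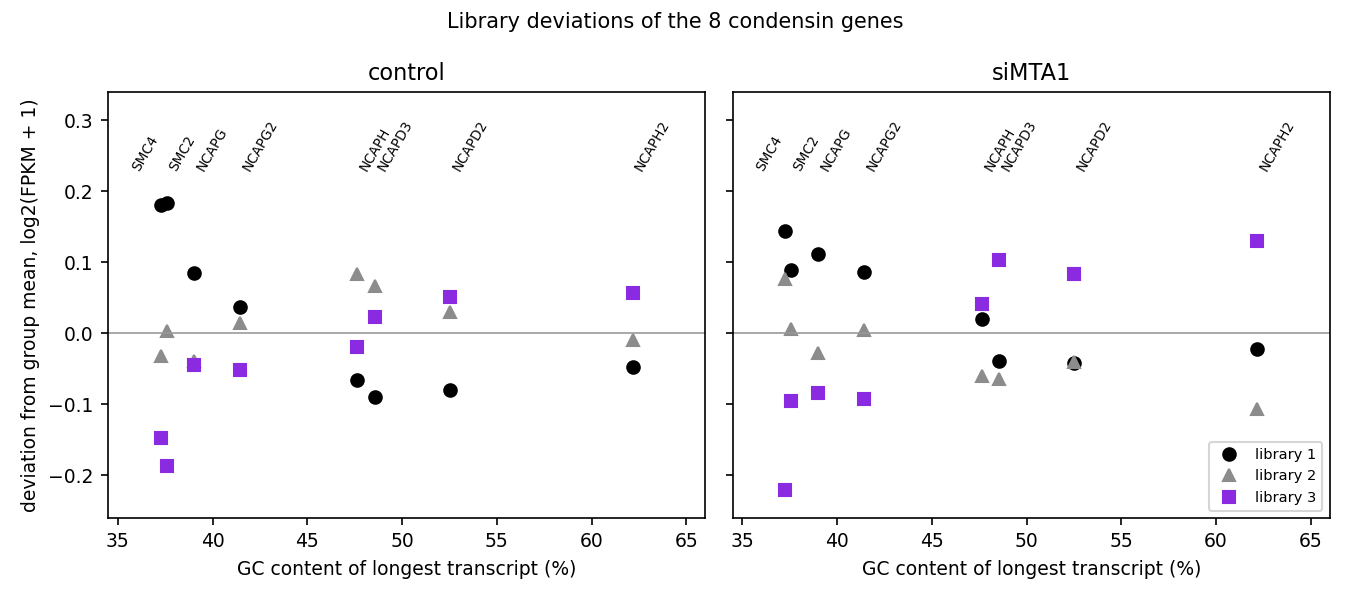
Deviation of each library from its group mean on log2(FPKM + 1) against the GC content of the longest transcript, for the 8 condensin genes in control (left) and siMTA1 (right). Library 1 lies above 0 and library 3 below 0 for the 4 genes under 42% GC in both groups.

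Reads of some of these genes could be shared with a gene on the other strand, since the libraries were directional but the sources used here do not say whether counting used the strand. Exons of LCORL overlap 33.1% of the exon length of NCAPG, those of TRIM59 18.5% and of IFT80 7.18% of SMC4, and those of MRPL51 7.49% of NCAPD2. These neighbours had mean levels of 1.32 FPKM (LCORL), 1.31 FPKM (TRIM59), 2.61 FPKM (IFT80) and 40.4 FPKM (MRPL51) in control, and none of the 4 passed (limma adjusted p between 0.454 for TRIM59 and 0.773 for LCORL). VPS26B and the unexpressed JAM3 overlap NCAPD3 over 2.73% and 5.10% of its exon length. No overlap was annotated for NCAPH, NCAPG2, SMC2 or NCAPH2 with a gene of the table.

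For 5 of the 8 genes another gene starts on the opposite strand within 1000 bases, which makes a divergent pair. Of these neighbours MRPL51 (NCAPD2), VPS26B (NCAPD3), LMF2 (NCAPH2) and IFT80 (SMC4) did not pass, with log2 fold changes between −0.05 for LMF2 and 0.07 for IFT80. DCAF16, which starts 144 bases from NCAPG, fell from 9.52 ± 0.10 to 7.68 ± 0.26 FPKM (SD, n = 3 each, log2 fold change −0.28, limma adjusted p = 0.00971), while NCAPG had a log2 fold change of 0.15 and did not pass. The pseudogene NCAPD2P1 was listed at 0 in all libraries.

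Proteins that act with condensin on mitotic chromosomes or modify it form a list of 27 genes, and all were tested. Of these, 10 rose and 0 fell, with a median log2 fold change of 0.13, beside 6.13% of all tested genes higher and 12.1% lower. MKI67, which coats mitotic chromosomes, rose from 28.6 ± 1.03 to 43.5 ± 1.77 FPKM (SD, n = 3 each, log2 fold change 0.59, limma adjusted p = 0.000286). AURKB, the kinase that promotes loading of condensin I, and INCENP, its scaffold, had log2 fold changes of 0.42 (adjusted p = 0.00117) and 0.56 (0.00131). The other genes that rose were KIF4A, a chromokinesin that binds condensin I, CCNB1, BIRC5, CDCA8, PLK1, TOP2A and TTK. The call of TOP2A, the topoisomerase that works beside condensin on mitotic chromosomes, ended without control library 2 (adjusted p = 0.0520), without siMTA1 library 1 (0.0518) or 2 (0.0616) and with no filter (0.0951). MCPH1, an inhibitor of condensin II, did not pass, at 2.32 ± 0.19 and 2.04 ± 0.08 FPKM in control and siMTA1 libraries (SD, n = 3 each, log2 fold change −0.12, adjusted p = 0.231). Nor did CDK1 (log2 fold change 0.25, adjusted p = 0.148), which phosphorylates both complexes, or TOP2B (−0.04, adjusted p = 0.627), the interphase topoisomerase. The count higher was 6 with no filter on low values, and over all settings it lay between 6 and 13 with at most 1 lower. Among all tested genes 297 to 1434 were higher and 379 to 2615 lower over those settings. Whether the list differs from condensin was not tested.

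Other genes of mitosis and proliferation were described beside condensin, because its transcripts are known to vary through the cell cycle. Of 26 such genes 9 rose and 0 fell, beside 6.13% and 12.1% of all tested genes, and their median log2 fold change was 0.22, close to the 0.21 of the condensin genes. KIF23, a kinesin of cytokinesis, rose from 13.6 ± 0.33 to 17.6 ± 0.74 FPKM (SD, n = 3 each, limma adjusted p = 0.00427), and BUB1, a checkpoint kinase, and TPX2, a spindle assembly factor, each had a log2 fold change of 0.33 (adjusted p = 0.00706 and 0.00723). The summed level of the 26 genes ranged from 493.0 to 523.3 FPKM in control libraries and from 565.8 to 592.5 FPKM in siMTA1 libraries, without overlap. Their part in the condensin result was not tested. The count higher was 5 without control library 2, 4 with no filter and 14 under each of the 3 scalings named above. It was 16 with the replicate number as a block and 17 with array weights or with the length and GC trend removed. The whole table moved as well, from 744 of 12141 genes higher to 391 of 12136 without control library 2 and 297 of 33126 with no filter. Upper-quartile, quantile and median scaling gave 1000, 1011 and 1128 higher of all genes. The block gave 992, array weights 1434 and the removed trend 1018 of 12076.

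Regulators of cell cycle transcription, a list that holds activators such as FOXM1 and repressors such as E2F8 and parts of DREAM, had 4 of 22 tested genes higher, 2 lower and their median log2 fold change at 0.04, beside 6.13% higher and 12.1% lower over all tested genes. The count lower was 0 with median centring and 1 under TPM, upper-quartile and quantile scaling. It was 3 with the replicate block and 4 with array weights or the length and GC trend removed. With no filter 1 gene was higher and 0 lower. Among all tested genes the number lower ran from 379 with no filter to 2615 with array weights, against 1463 without a change of setting. MYBL2, which partners LIN54 on CHR elements, rose from 12.8 ± 1.03 to 18.3 ± 1.22 FPKM (SD, n = 3 each, log2 fold change 0.49, limma adjusted p = 0.00299), and this call held in all 20 alternatives. FOXM1, a transcription factor of late cell cycle genes, had a log2 fold change of 0.39 (adjusted p = 0.0171, but 0.0503 without siMTA1 library 3 and 0.110 with no filter on low values). NFYA, the regulatory subunit of NF-Y, had one of 0.25 (adjusted p = 0.0220, but 0.0617 without control library 3 and 0.0624 and 0.0648 without siMTA1 libraries 2 and 3, and 0.0773 with no filter). E2F8 was the other gene higher (0.22), and E2F5 (−0.30) and NFYC (−0.21) were lower. These last 3 are named to complete the count, and the call of E2F8 and NFYC ended whichever library was left out, with adjusted p of at most 0.104 for E2F8 and 0.121 for NFYC, and that of E2F5 without control library 2 or 3 or siMTA1 library 2 or 3, with adjusted p of at most 0.0683. With 1 library left out, 1 (without siMTA1 library 3) to 3 of the regulators were higher and 0 or 1 lower, and the count higher was 2 without control library 3 or siMTA1 library 2. LIN54 itself did not pass (−0.10, adjusted p = 0.332).

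The other SMC complexes, cohesin and SMC5/6, are built on related ATPases. Of 13 tested genes of these complexes and their relatives, 0 rose and 1 fell, and their median log2 fold change was −0.01, beside 6.13% higher and 12.1% lower over all tested genes. The 1 called gene was NSMCE1, a ubiquitin ligase subunit of SMC5/6, with 69.8 ± 0.83 FPKM in the control group and 61.5 ± 2.63 FPKM in the other (SD, n = 3 each, log2 fold change −0.18, limma adjusted p = 0.0463). That call ended whichever library was left out, with adjusted p between 0.0547 and 0.152. The cohesin ATPase gene SMC1A (0.18, adjusted p = 0.0555) and NDNL2, an older symbol of NSMCE3 (−0.18, adjusted p = 0.0550), did not pass. SMC1A passed in 8 of 20 alternatives, among them TPM (adjusted p = 0.0423), upper-quartile (0.0287), quantile (0.0294) and median (0.0242) scaling, and NDNL2 in 4 of 20, among them the fit without control library 1 (0.0454). Over all settings between 0 and 2 of these genes were higher and between 0 and 2 lower. Among all tested genes 297 to 1434 were higher and 379 to 2615 lower over those settings. Whether the genes of this list differ from condensin was not tested.

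**Figure D5:**
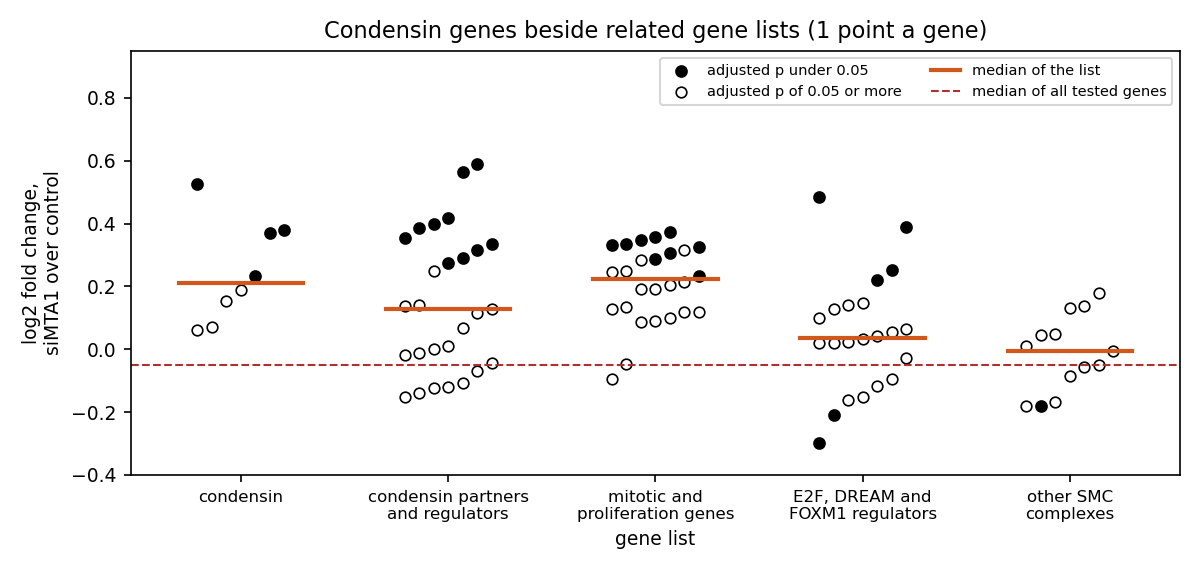
Log2 fold change, siMTA1 over control, of each tested gene of the condensin set and 4 related lists, with the median of each list as a bar and the median of all tested genes as a dashed line at −0.05. Medians are 0.21 for condensin, 0.13 for its partners, 0.22 for mitotic genes, 0.04 for transcription regulators and −0.01 for other SMC complexes.

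The profile of each kleisin over the 6 libraries was compared with that of 7080 other genes of at least 5 FPKM. The genes most like NCAPH were HMOX1, TUBA1C, CDCA5, OSBPL2 and RNF145, with Pearson's r of log2(FPKM + 1) from 0.987 to 0.991. CDCA5 codes for sororin, which protects cohesion of sister chromatids, and TUBA1C for an alpha-tubulin. The genes most like NCAPH2 were R3HDM4, ALDOA, CITED2, BAP1 and DIABLO, with r from 0.962 to 0.976. With 6 libraries in 2 groups these correlations describe the group difference and library spread that the genes share, and carry no test.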

How the data were processed

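RNA was measured in 6 HCT116 libraries. The authors deposited FPKM for 36651 genes, printed to 2 decimals. Per the submitters' processing notes cutadapt, TopHat2 and edgeR and the build GRCh38 were used. Not given in the sources used here are their versions, the counting, its use of strand, the annotation and the gene lengths. Columns were matched to samples by name.

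Tests used the 12141 genes whose mean over the 6 libraries reached 1 FPKM, and were run on log2(FPKM + 1) with limma 3.58.1 in R 4.3.3, by an empirical Bayes fit with intensity trend, two-sided, without covariates. Benjamini-Hochberg adjustment ran over all tested genes, with calls under 0.05. This scale understates changes of low genes. The test was checked on simulated data. Subunit pairs were compared by exact permutation. Depth was implied from steps of low values in genes shorter than 150 bases, of which 95.2% to 97.2% were whole within 0.05 of a fragment beyond rounding. At that depth the rarest transcripts, SMC2 and NCAPH, rested on at least 948 and 722 fragments in every library, a counting error of at most 3.25% and 3.72%. Lengths, GC content and coordinates came from GENCODE 29 (GRCh38), in which 35749 gene identifiers matched, and GC content was found for 12076 tested genes. Python 3.11.15, pandas 2.3.3 and matplotlib 3.10.9 were used.

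The members, gene lists and tests were chosen with earlier results of these data known. Named were the 8 condensin genes, MTA1, the 3 genes of lowest adjusted p in each list, and the 5 genes most like NCAPH and NCAPH2. KIF4A, CCNB1, BIRC5, CDCA8, PLK1, TOP2A, TTK, MCPH1, CDK1, TOP2B, LIN54, E2F8, E2F5, NFYC and the neighbouring genes were added after their values were seen. Alternatives were other pseudocounts, filters, scalings and limma settings, the replicate block, each library left out, and, chosen after seeing the data, a correction for length and GC content.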

Additional observations from a re-analysis of the deposited data

How the results depend on the processing

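With all libraries 744 genes were higher and 1463 lower, and 4 condensin genes were called higher and 0 lower. With no filter on low values 297 genes were higher and 379 lower, and 2 condensin genes were called. Upper-quartile scaling gave 939 lower, quantile normalization 895 lower, median centring 1128 higher and 802 lower, and array weights 1434 higher and 2615 lower. Leaving out 1 library at a time gave 391 to 633 genes higher and 642 to 1191 lower, and 2 to 3 condensin genes higher. The cause of these changes was not tested, although fewer samples and more genes tested are part of their construction. The log2 fold change lay between −0.021 (without control library 3) and 0.16 for SMC2 and between −0.0024 (without siMTA1 library 3) and 0.12 for NCAPH2 when 1 library was left out, and neither gene was called. NCAPH and NCAPG2 kept their direction and call under all 20 alternatives, and SMC4 and NCAPD2 kept their direction under all 20 and their call under 14 each. The change in balance between condensin I and II lay between −0.018 and 0.012 in all alternatives that apply to it.

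With the replicate number as a block, 992 genes were higher and 2039 lower, and the same 4 condensin genes were called. Same-numbered libraries had deviations from their group means that correlated with r of 0.33, 0.02 and 0.22 over 12141 genes. Between libraries numbered 1 and 3 of opposite groups r was −0.28 and −0.25. The r of the libraries numbered 2 was under 0.1, the limit used here for every pair, and these 2 libraries did not correlate best with each other. For that reason the numbers were not taken to pair the samples. With the block SMC4 had a limma adjusted p of 0.00597, against 0.0368 without it.

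At the depths implied, counting error of at most 3.72% in any condensin gene and library was below the SD between libraries of each group, taken as a percentage of the mean (CV). The error of 3.72% is that of NCAPH in control library 1. The CV of NCAPH was 6.33% in control and 4.19% with siMTA1. What limits precision was not tested.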
